A study of Mus musculus with 18 samples.

Results

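In the E14 mouse forebrain, 2854 nuclei expressed at least 2 of the 5 genes Otx2, Otx2os1, Lrp2, Ano1 and Hhip and none of 4 genes of other lineages. These are the Otx2 and Lrp2 expressing progenitors described here, and they made up 1.41% of the 201913 nuclei that met the limits of 800 to 6000 unique molecular identifiers (UMIs), 300 to 3000 genes and at most 1% mitochondrial UMIs. They were chosen by measured values: a gene counted as detected from a count of 1, and nuclei with a count of Neurod2 or Neurod6 (excitatory neurons), Gad2 (inhibitory neurons) or Eomes (intermediate progenitors) were left out. The 5 markers came from earlier clustering of the same nuclei, so their high level in the members is a description and no finding.

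The series holds single-nucleus RNA sequencing of embryonic forebrain in which nuclei were barcoded by splitting and pooling rather than in droplets. All embryos were of the MYT1L S710fsX line, in which a frameshift disrupts Myt1l (it encodes a zinc-finger factor of postmitotic neurons), and the groups were WT, heterozygous (Het) and homozygous mutant (KO) embryos at E14 (n = 3 animals per genotype). Each of the 9 animals had 2 libraries with the same sample title, called run 1 and run 2 here. The titles do not say how the 2 differ, and the paper's reporting summary describes the assay as performed once for each age. The 18 libraries had 25300676 to 93334845 UMIs, and the runs were summed so that the animal was the replicate. The mutation is constitutive, so every cell of a mutant carried it. Groups were taken from the sample titles, because the separate genotype tag of run 1 read WT for all 9 libraries.

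The walls of the embryonic forebrain are lined by dividing progenitors whose regional identity is set by signals from the midline. Sonic hedgehog acts from the ventral side, FGFs from the rostral midline, and WNTs and BMPs from the dorsal midline, where the cortical hem and the choroid plexus form. Otx2 is a homeobox transcription factor needed for forebrain formation and kept on at the midline. Lrp2 (megalin) is a large endocytic receptor of the LDL receptor family that binds Sonic hedgehog on forebrain neuroepithelium. Hhip is a membrane protein that is induced by Hedgehog signalling and traps the ligand. Ano1 is a calcium-activated chloride channel, and Otx2os1 is a long noncoding RNA read from the strand opposite to Otx2.

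On mm10, Otx2 (ENSMUSG00000021848.16) spans chr14:48657677-48673819 on the minus strand and Otx2os1 (ENSMUSG00000098682.8) chr14:48668708-48870683 on the plus strand. The genes overlap, and the sources used here do not say whether counting used the strand, so reads of the pair may not be fully told apart. Lrp2 (ENSMUSG00000027070.14) lies at chr2:69424340-69586065 and Hhip (ENSMUSG00000064325.4) at chr8:79965851-80058006, both on the minus strand. Of the members, 357 (12.5%) qualified by Otx2 and Otx2os1 alone.

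The promoter windows of Hhip and Ptch1 are shown because both genes are induced by Hedgehog signalling and mark part of the members, and the 3rd of 4 listed Otx2 windows because it held a match to the motif bound by OTX proteins. They come from RefSeq (GRCm38.p6, 250 bases before to 50 after a gene start), are written 5′ to 3′ on the gene's strand, and carry motif matches in capitals. The Hhip window is chr8:80057959-80058258, the Ptch1 window is chr13:63565686-63565985 and the Otx2 window is chr14:48665060-48665359.
Hhip: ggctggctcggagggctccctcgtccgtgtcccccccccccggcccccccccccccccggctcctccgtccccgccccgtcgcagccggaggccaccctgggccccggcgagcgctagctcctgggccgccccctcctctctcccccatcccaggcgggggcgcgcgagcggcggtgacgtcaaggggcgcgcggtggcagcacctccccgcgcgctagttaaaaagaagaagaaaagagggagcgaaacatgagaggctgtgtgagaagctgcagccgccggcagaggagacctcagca
Ptch1: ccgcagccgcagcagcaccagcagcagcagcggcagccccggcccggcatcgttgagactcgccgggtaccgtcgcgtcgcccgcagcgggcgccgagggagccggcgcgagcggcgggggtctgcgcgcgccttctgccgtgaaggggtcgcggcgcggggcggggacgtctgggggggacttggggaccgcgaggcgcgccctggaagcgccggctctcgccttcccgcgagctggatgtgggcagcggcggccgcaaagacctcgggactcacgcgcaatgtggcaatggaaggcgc
Otx2: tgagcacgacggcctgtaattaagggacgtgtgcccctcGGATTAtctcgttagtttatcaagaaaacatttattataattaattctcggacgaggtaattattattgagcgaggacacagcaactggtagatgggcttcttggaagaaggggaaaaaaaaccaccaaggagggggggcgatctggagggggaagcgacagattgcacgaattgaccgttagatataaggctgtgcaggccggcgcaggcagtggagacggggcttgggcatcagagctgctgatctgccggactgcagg
The OTX motif TAATCC, or its reverse GGATTA, was present once in the Otx2 window, from position 40, and in 7.06% of all 32851 windows on either strand. The GLI motif GACCACCCA, or its reverse TGGGTGGTC, was present in 0.253% of all windows and in 0 of 15 windows of 13 of the 17 genes listed here for the Hedgehog pathway. A match is a description of the letters, and its absence says only that these letters are not in the window.

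Ano1 was the most widely detected marker, with a count in 77.5% of members, followed by Otx2os1 (65.8%), Otx2 (46.8%), Lrp2 (20.2%) and Hhip (17.6%). In neurons with counts of Neurod2 and Neurod6, which served as a background (median 3395 UMIs against 2571 in members), the shares were 1.28%, 0.753%, 0.319%, 0.837% and 0.403%. Most members (2136) had exactly 2 markers, 645 had 3, 68 had 4 and 5 had all 5. The commonest combination was Otx2os1 with Ano1 and nothing else (786 members, 27.5%), followed by Otx2, Otx2os1 and Ano1 together (394), Otx2 with Otx2os1 (357) and Ano1 with Hhip (309). Of the genes in the population's name, neither was detected in most members.

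To see whether each marker went with the others, nuclei were also chosen by at least 2 of the other 4. For each marker, the pallial radial glia used here had fewer than 2 of the other 4. These sets can hold members and so differ from the pallial radial glia defined below. In the nuclei chosen by the other markers, Ano1 was detected in 50.6% against 8.19% of pallial radial glia, Otx2os1 in 38.7% against 4.01% and Otx2 in 28.0% against 2.00%. The differences were smaller for Lrp2 (8.99% against 2.30%) and Hhip (5.77% against 1.74%). In CPM (a gene's count in the summed nuclei of a population and animal, scaled to a common total) the ranges over 9 animals did not overlap for any of the 5, the closest being Hhip, which reached from 17.4 to 111 CPM in the chosen nuclei and from 4.82 to 12.1 CPM in pallial radial glia. These are descriptions, since the set of markers was itself found in these nuclei.

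The cutoff of 2 markers fell within a gradient. Ptch1, the Hedgehog receptor, stood at 195 CPM in the 6074 nuclei with exactly 1 marker, at 435 CPM in members with 2 and at 512 CPM in members with 3 or more. Nkx2-1 (43.4, 67.2 and 105 CPM) and Zic4 (113, 249 and 286 CPM) followed the same order, while the neuronal gene Dcx ran the other way (162, 102 and 53.5 CPM). The exclusion genes removed 1399 of 4253 nuclei with at least 2 markers (32.9%), 1012 of them with a count of Gad2. The excluded nuclei were deeper than the members, with a median of 3448 UMIs. No doublet filter was applied to the members, as the selection rule names none, and leaving out the nuclei with the highest doublet scores was one of the alternatives.

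**Figure D1:**
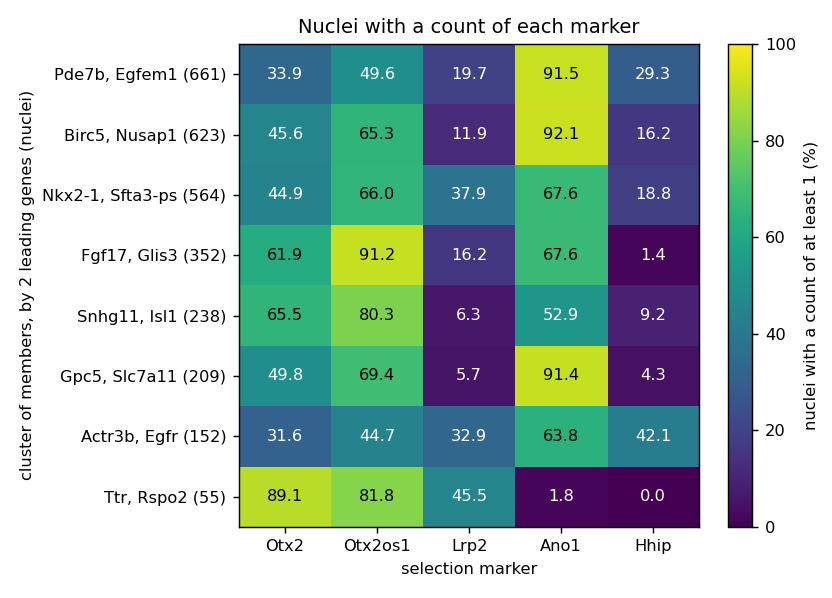
Share of nuclei (colour and number, in %) with a count of at least 1 of each selection marker (columns) in 8 clusters of the members (rows, named by a pair of leading genes, with the number of nuclei). Ano1 reached 92.1% in the cluster led by Birc5 and Nusap1 and 1.82% in the cluster led by Ttr and Rspo2, where Otx2 was detected in 89.1%.

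The members differed among themselves. Clustering used 2000 variable genes, without the 5 markers, the exclusion genes, Myt1l, and sex-linked and mitochondrial genes. It gave 8 clusters, which are named here by their leading genes (among the 10 with the largest fold over the other members, of at least 50 CPM). No test is given for them because they were cut from the same counts. A coarser and a finer resolution gave 7 and 14 clusters. The largest was led by Pde7b, Egfem1 and Grin3a (661 nuclei, 23.2%), and it had the highest level of Hhip (351 CPM against 86.8 CPM in the other members), of Ano1 (1949 against 944 CPM) and of the Hedgehog target genes Ptch1 (764 against 383 CPM) and Gli1 (58.0 against 23.5 CPM). The replication gene Mcm6 was also higher there (153 against 66.3 CPM). The next (623 nuclei, 21.8%) was led by Lockd, Birc5 and Nusap1 and was set apart by mitosis genes, with Top2a in 96.1% and Mki67 in 92.5% of its nuclei.

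A cluster of 564 nuclei (19.8%) was led by Sfta3-ps, Nkx2-1, a homeobox gene of the ventral forebrain, and Sulf1, which trims heparan sulfate at the cell surface. It had 306 CPM of Nkx2-1 against 23.7 CPM in the other members, 225 CPM of Lrp2 against 74.2 CPM, and more of the Shh ligand (22.8 against 0.773 CPM), which was counted in 4.26% of its nuclei. Ptch1 was higher there (643 against 413 CPM) and Gli1 lower (9.46 against 35.1 CPM). Sfta3-ps overlaps Gm47720, another leading gene of the cluster, so the pair's levels are uncertain.

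The cluster led by Fgf17, Glis3 and Spry1 (352 nuclei, 12.3%) carried genes of the septal and rostral midline. Fgf17, a ligand of the rostral signalling centre, stood at 66.5 CPM against 1.58 CPM, and Spry1 is a feedback inhibitor of FGF signalling. The zinc-finger genes Zic4 (730 against 189 CPM) and Zic1 (481 against 201.6 CPM) and the homeobox gene Six3 (95.4 against 53.1 CPM) were higher there too. Otx2os1 was detected in 91.2% of these nuclei and Hhip in only 1.42%.

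The smallest cluster (55 nuclei, 1.93%) was led by Ttr (1188 against 0.513 CPM), the transthyretin made by choroid plexus epithelium, and by Rspo2, Lmx1a, Htr2c and Wnt3a. Lmx1a, a roof plate transcription factor, was detected in 96.4% of its nuclei, Rspo3 in 89.1%, Wnt8b in 74.5% and Ttr in 34.5%. Otx2 stood at 532 CPM against 215 CPM in the other members, whereas Ano1 was detected in 1.82% and Hhip in 0 of 55.

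A further 209 nuclei (7.32%) were led by Gpc5, Slc7a11 and Luzp2. They had more Pax6 (190 against 49.9 CPM) and more of the Hedgehog co-receptor genes Boc (391 against 143 CPM), Cdon (639 against 326 CPM) and Gas1 (138 against 57.0 CPM) than the other members. The cluster led by Actr3b and Egfr (152 nuclei, 5.33%) had Nr2f1 at 532 CPM against 77.2 CPM and Rspo3 at 248 against 61.9 CPM. The posterior forebrain genes Irx2 (15.8 against 0.133 CPM) and Irx5 (17.8 against 0.267 CPM) were higher there too. They were counted in only 0.315% and 0.385% of all members, so these levels rest on few nuclei. The cluster took 13.4% of the members of Het 1 (58 nuclei) and 1.78 to 6.76% in the other 8 animals. Het 1 also had 474 nuclei with at least 2 of the diencephalic genes Tcf7l2, Lhx9 and Gbx2, against 47 to 93 in the other animals, and the part of this in the results was not tested.

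The label of progenitors did not hold for the cluster led by Snhg11, Isl1, Sntg1 and Syt1 (238 nuclei, 8.34%). Its nuclei had the neuronal genes Dcx in 72.3% and Stmn2 in 39.1%, 481 and 266 CPM against 47.6 and 20.7 CPM in the other members. Slc1a3, the radial glial glutamate transporter, was low (152 against 1017 CPM), as was the Notch target Hes5 (11.9 against 78.7 CPM). Myt1l stood at 845 CPM and was detected in 66.4% of these nuclei, against 68.2 CPM in the other members, and its relatives Myt1 and St18 followed at 232 and 192 CPM. Otx2 was detected in 65.5% of them. The cluster took 3.09 to 18.5% of an animal's members, the highest share in KO 1.

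**Figure D2:**
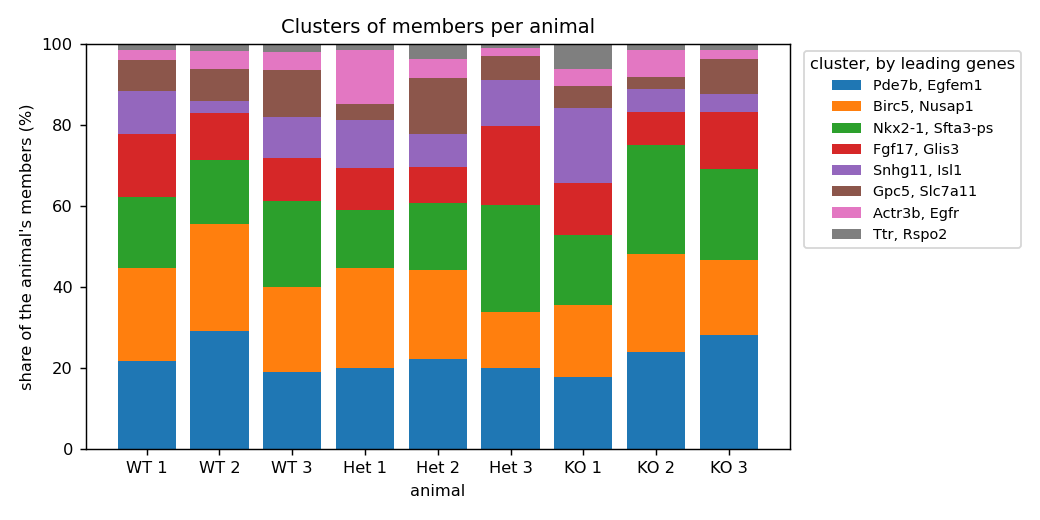
Share of each animal's members (y axis, %) in each of the 8 clusters (colours), with 1 bar per animal. All 8 clusters were present in every animal, and the cluster led by Actr3b and Egfr was at 13.4% in Het 1.

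For comparison, 2 other progenitor populations were defined in the same nuclei, with fewer than 2 of the 5 markers and none of the exclusion genes. Pallial radial glia (14352 nuclei, median 2835 UMIs) had counts of at least 2 of Pax6, Emx1, Emx2, Hes5 and Slc1a3. Subpallial progenitors (2291 nuclei, median 2116 UMIs) had at least 2 of 5 genes, among them Gsx2, Dlx1, Dlx2 and Olig2, and nuclei with at least 2 genes of both sets were in neither. Summed counts per animal were compared with edgeR with the animal as a block, and a gene was called at a Benjamini-Hochberg adjusted p under 0.05 and a log2 fold change beyond 1, genes of the selection rules left out. All populations were cut from counts in these nuclei, so an adjusted p says how steady a difference was over 9 animals, not that the populations were found independently.

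Against pallial radial glia, 542 of 12040 tested genes were higher in the members (4.5%) and 257 lower (2.13%). Without the cluster led by Snhg11 and Isl1 the counts were 493 and 294. Against subpallial progenitors, 572 of 8946 genes were higher (6.39%) and 200 lower (2.24%), the latter 309 without that cluster. Both comparisons share the members' libraries. Of the genes higher in the members, 171 were in both sets, which is 31.5% of the first and 29.9% of the second, and 13 were lower in both.

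Ptch1 and Gli1, which Hedgehog signalling induces, were higher in the members than in either population, and the co-receptor genes Cdon, Gas1 and Boc were lower than in pallial radial glia. In values per animal, which are given from the lowest to the highest of the 9 with the median in brackets, Ptch1 reached from 351 to 613 CPM [414] over the 9 animals, against 52.1 to 70.0 CPM [59.9] in pallial radial glia and 107 to 164 CPM [133] in subpallial progenitors. The 3 ranges did not overlap. The log2 fold change was 2.91 ± 0.05 (SE, n = 9, edgeR adjusted p = 1.1e-23) over pallial radial glia and 1.85 ± 0.07 (edgeR adjusted p = 3.6e-16) over subpallial progenitors.

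Gli1, the transcriptional activator that is itself a target of the pathway, had 17.5 to 44.9 CPM [24.9] in the members and 3.53 to 6.73 CPM [4.90] in pallial radial glia, log2 2.58 ± 0.16 (SE, n = 9, edgeR adjusted p = 6.2e-13). In subpallial progenitors it had 4.04 to 13.2 CPM [6.27], below every animal's members, log2 2.10 ± 0.21.

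Hhip was part of the selection, and its induction by the same pathway ties it to these genes, so the values were also taken in the 2353 members without a count of Hhip. Ptch1 was at 339 CPM there (298 to 401 CPM over the animals) and Gli1 at 19.3 CPM. For Ptch1 every animal was above all animals of both other populations, whereas Gli1 had 6.15 to 28.0 CPM over the animals and overlapped with both. In the 501 members with Hhip the levels were 985 and 79.1 CPM. The other markers split the members as well. In the 641 members without Ano1, Gli1 was at 5.36 CPM (0 to 13.1 CPM over the animals), which overlapped with both populations, and Ptch1 at 260 CPM (172 to 312 CPM), which did not. Gli1 was at 13.9 CPM in the 577 members with Lrp2 and at 34.9 CPM in those without.

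The co-receptor genes showed the opposite difference from pallial radial glia. Cdon had 277 to 437 CPM [363] in the members and 1524 to 1796 CPM [1688] in pallial radial glia, log2 -2.26 ± 0.05 (SE, n = 9, edgeR adjusted p = 1.4e-22). Gas1 had 21.2 to 101 CPM [67.7] against 129 to 296 CPM [241] (log2 -1.92 ± 0.08) and Boc 101 to 179 CPM [165] against 310 to 359 CPM [338] (log2 -1.07 ± 0.06), the latter not called when Otx2 and Otx2os1 were counted as 1 marker or without the Snhg11 and Isl1 cluster. None of these ranges overlapped.

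Against subpallial progenitors Boc was higher in the members (log2 1.23 ± 0.10, 53.9 to 92.9 CPM [68.1] there), and Cdon was at the threshold with log2 1.00 ± 0.08, called in 11 of 23 alternatives. Gas1 had log2 0.69 ± 0.16 and was not called.

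Of the 15 genes of the Hedgehog list outside the selection rules, 14 were tested against pallial radial glia, and 3 were higher, 3 lower (Boc not called without the Snhg11 and Isl1 cluster) and 8 not called, with a median log2 of -0.14 (-0.01 over all genes tested). Against subpallial progenitors 5 of 13 were higher and 0 lower, median 0.69 (-0.01 over all genes tested). The transducer Smo had 129 to 154 CPM [144] in the members and 140 to 164 CPM [144] in pallial radial glia (log2 -0.06 ± 0.05), and the ranges overlapped. Gli3, the main repressor of the pathway, was between the other populations at 732 to 922 CPM [840], against 1225 to 1531 CPM [1371] in pallial radial glia and 382 to 538 CPM [476] in subpallial progenitors, and neither difference was past the fold threshold (log2 -0.70 ± 0.04 and 0.89 ± 0.06).

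**Figure D3:**
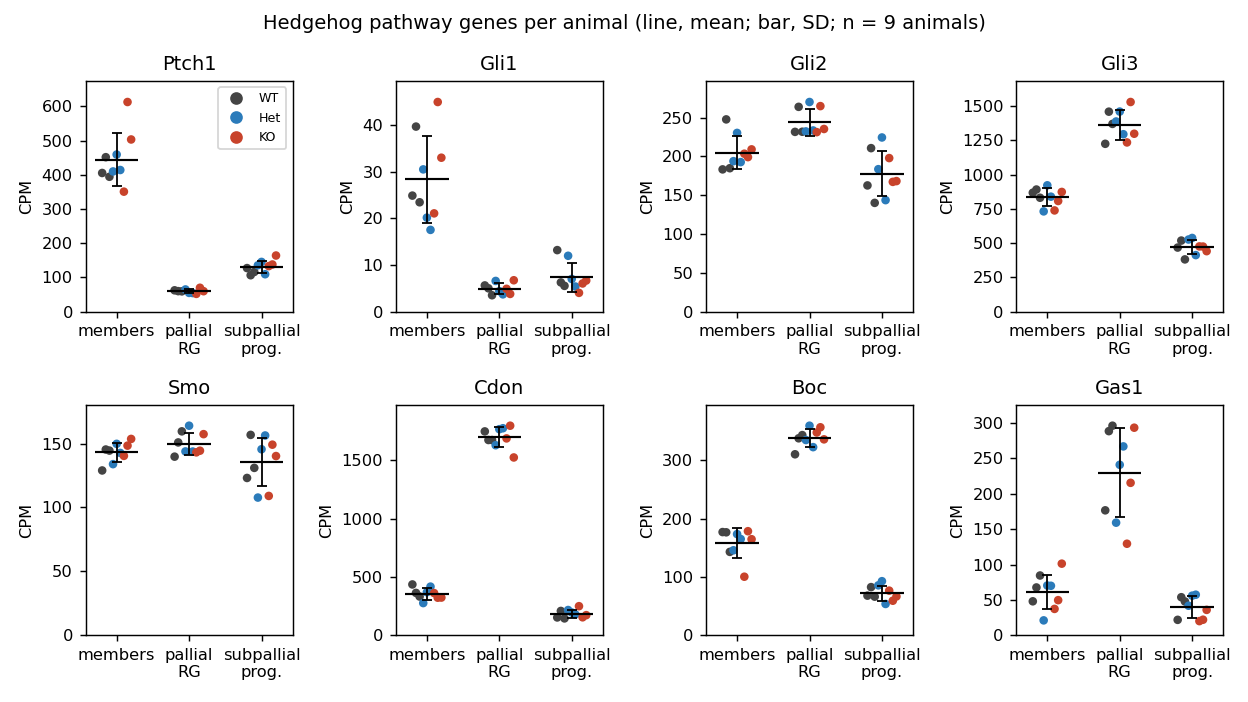
CPM (y axis, linear from 0) of 8 Hedgehog pathway genes per animal in the members, pallial radial glia (RG) and subpallial progenitors (x axis), with points coloured by genotype, lines at the mean and bars of 1 SD (n = 9 animals). Ptch1 and Gli1 were highest in the members, and Cdon, Boc and Gas1 were highest in pallial radial glia.

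Of 7 tested genes of the septal and rostral midline list, 5 were higher than in pallial radial glia and 0 lower, and 6 of 7 were higher than in subpallial progenitors. Fgf15, a ligand of rostral and ventral progenitors, had 110 to 230 CPM [150] in the members, 5.60 to 18.6 CPM [11.2] in pallial radial glia (log2 3.82 ± 0.09, edgeR adjusted p = 5.6e-22) and 3.02 to 32.3 CPM [8.79] in subpallial progenitors (log2 4.04 ± 0.19, edgeR adjusted p = 5.4e-15), and the members' range overlapped with neither. It overlaps the noncoding genes Gm26793 and Gm39119 on the other strand.

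Zic4 had 161 to 416 CPM [265] against 17.6 to 51.1 CPM [39.0] in pallial radial glia (log2 2.82 ± 0.08) and 29.2 to 101 CPM [66.4] in subpallial progenitors (log2 2.12 ± 0.08). Zic1 (log2 1.78 and 1.65) was called in both comparisons, while Zic2 (0.57 and 1.66) and Zic5 (0.46 and 2.00) passed the fold threshold against subpallial progenitors and did not against pallial radial glia. Six3, a rostral homeobox gene that represses WNT genes, had 42.0 to 83.9 CPM [59.5] against 1.75 to 7.96 CPM [4.63] in pallial radial glia (log2 3.57 ± 0.15) and 27.9 to 48.1 CPM [37.4] in subpallial progenitors (log2 0.71 ± 0.12, not called). It overlaps the antisense gene Six3os1, which had log2 4.57 over pallial radial glia, so the pair cannot be told apart where strand was not used.

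Of 8 tested genes of the cortical hem and roof plate list, 5 were higher than in pallial radial glia and 0 lower (median log2 1.44). Rspo2, which enhances WNT signalling, ranged from 58.8 to 351 CPM [159] against 18.7 to 70.6 CPM [44.4] (log2 1.85 ± 0.20), was higher in 8 of 9 animals and overlapped. Lmx1a (log2 1.86 ± 0.22) and Rspo1 (1.82 ± 0.19) were higher in 9 of 9 animals, Bmp6 (1.5 ± 0.22) and Wnt3a (1.37 ± 0.23) in 8 of 9, and Wnt3a was not called when Otx2 and Otx2os1 counted as 1 marker. Not all of these differences were present outside the small cluster led by Ttr and Rspo2. Summed over the members outside its 55 nuclei, Rspo2 was at 16.4 CPM, Lmx1a at 2.69 CPM and Wnt3a at 1.22 CPM, each below the lowest animal of pallial radial glia (18.7, 4.19 and 2.10 CPM). Rspo1 (12.1 CPM) and Bmp6 (9.01 CPM) were above the highest (10.4 and 7.69 CPM). Wnt8b had 19.4 to 53.8 CPM [26.4] in all members and 8.08 CPM outside those 55 nuclei, against 18.4 to 29.99 CPM [22.7] in pallial radial glia (log2 0.28 ± 0.14, edgeR adjusted p = 0.13) and 0 to 2.51 CPM [0] in subpallial progenitors (log2 5.02 ± 0.35, edgeR adjusted p = 1.4e-11).

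Genes of the pallium were lower than in pallial radial glia. Of the telencephalic and pallial list, 3 of 4 tested genes outside the rules were lower. Lhx2, a homeobox gene that restrains hem fate, had 67.6 to 84.2 CPM [78.0] against 194 to 235 CPM [210] (log2 -1.45 ± 0.06), and the Doublesex-related genes Dmrta2 and Dmrt3 had log2 -2.38 ± 0.12 and -3.49 ± 0.29. Nr2f1 was lower than in both populations (log2 -1.99 ± 0.07 and -1.37 ± 0.07). Pallial radial glia were chosen by pallial genes, so part of this order follows from their choice.

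**Figure D4:**
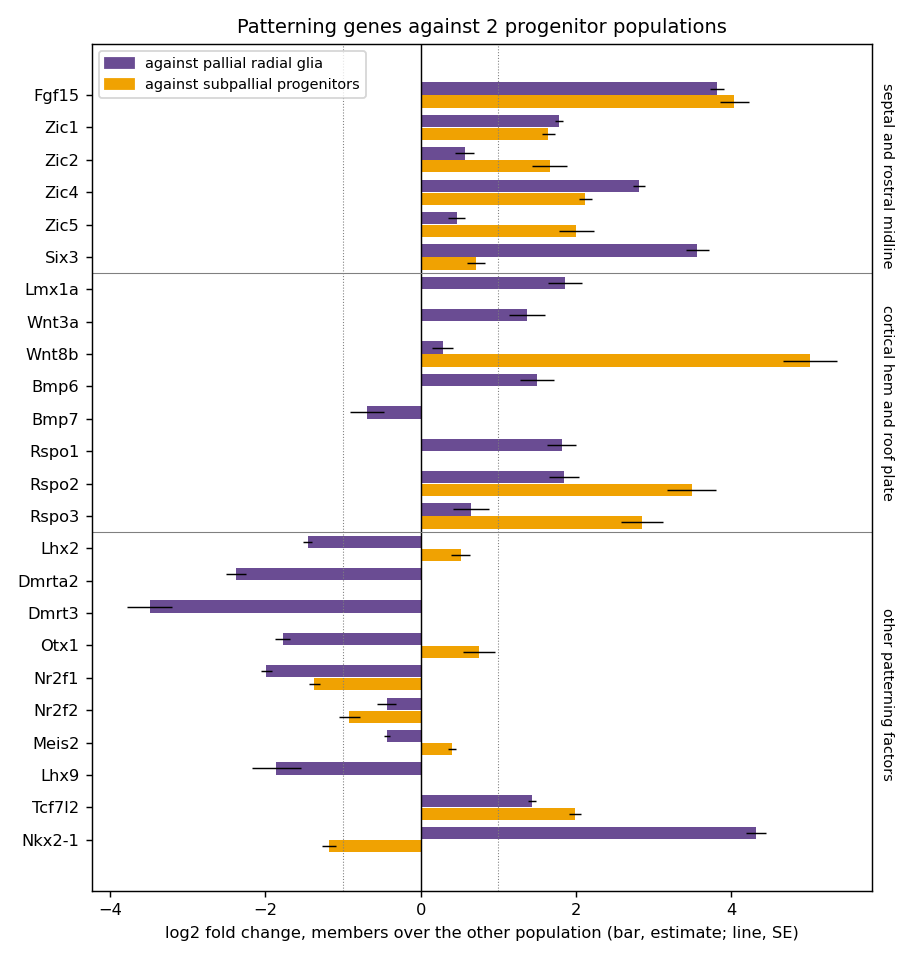
Fitted log2 fold change (x axis, bars from 0, black lines ± 1 SE) of patterning genes in the members over pallial radial glia (purple) and over subpallial progenitors (orange), n = 9 animals, with dotted lines at a log2 of 1 and -1. A missing orange bar is a gene that was too low to be tested there, and the third group of genes was picked with the values known. Fgf15 and Zic4 were higher and Nr2f1 lower than in both populations.

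By the rule for named genes, the largest increases over pallial radial glia were Sfta3-ps (log2 4.67), Six3os1, Sulf1 (4.50), Nkx2-1 (4.32), Isl1 (4.25), Fgf15, Pde7b (3.79), Ntn1 (3.72), Six3 and Stk33 (3.54). All 10 were called in each alternative that tested them, which for Isl1 were 20. Sulf1 had 118 to 274 CPM [216] in the members, 5.87 to 13.7 CPM [8.43] in pallial radial glia and 3.51 to 37.3 CPM [25.2] in subpallial progenitors. Ntn1 (netrin-1), a secreted guidance cue of ventral midline cells, had 496 to 813 CPM [653] against 29.99 to 66.9 CPM [48.6] and 125 to 198 CPM [167], without overlap. Nkx2-1 had 53.6 to 107 CPM [84.4] in the members, 1.76 to 6.56 CPM [4.6] in pallial radial glia and 121 to 255 CPM [189] in subpallial progenitors, so the members lay between them. Stk33 lay between them as well, with 103 to 165 CPM [117] against 5.60 to 13.2 CPM [11.4] and 437 to 614 CPM [494]. Isl1, a homeobox gene of several neuron types, had 15.7 to 52.9 CPM [28.8] against 0.441 to 3.44 CPM [1.59] and 24.5 to 77.2 CPM [57.1], and overlapped with subpallial progenitors. Summed over the members outside the Snhg11 and Isl1 cluster it was at 5.24 CPM, against 246 CPM in that cluster.

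The largest decreases from pallial radial glia were Dct (log2 -6.22), a melanin-synthesis enzyme also found in cortical progenitors, Mybpc1, Cav1, Adamts19, P3h2, Dok5, Tfap2c, Kcnip1, Pcdh15 and Eya1 (-2.86). Dct had 0 to 4.68 CPM [0] in the members and 48.9 to 91.5 CPM [69.4] in pallial radial glia. Tfap2c, a transcription factor of cortical radial glia, had 1.85 to 11.7 CPM [6.83] against 44.3 to 61.0 CPM [54.5]. Neither pair of ranges overlapped.

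Against subpallial progenitors the largest increases were Wnt8b, Fgf15, Hhipl1 (log2 3.5), Rspo2 (3.49), Itga2, Glis3 (3.30), Frem1, Cyp46a1, Tmem132c and Aldh1l1 (3.18). For Rspo2, the 16.4 CPM of members outside the Ttr and Rspo2 cluster lay within the range of subpallial progenitors (0 to 70.2 CPM [2.00]). Glis3, which led the rostral cluster, had 187 to 437 CPM [300] against 14 to 63.1 CPM [28.7] in subpallial progenitors and 27.6 to 55.8 CPM [41.0] in pallial radial glia. Aldh1l1, a folate enzyme of radial glia and astrocytes, had 23.3 to 50.8 CPM [35.1] against 0 to 10.5 CPM [3.99] and 7.19 to 18.9 CPM [14.1]. The largest decreases, several of them in transcription factor genes of the inhibitory lineage, were Dlx6os2, Lhx6 (log2 -4.55), Dlx6os1 (-3.89), Dlx1as, Sp9 (-3.5), Lhx8 (-3.44), Dlx6, Dll3, Cbfa2t3 and St18 (-2.81). Lhx6 had 0 to 8.76 CPM [3.78] in the members against 75.8 to 117 CPM [95.9]. Dlx1 and Dlx2 chose the subpallial progenitors, and Dlx1as overlaps Dlx1, so these decreases partly follow from the choice. Nuclei with at least 2 genes of the pallial set, Hes5 and Slc1a3 among them, were left out of that population. Increases in radial glial genes, such as Aldh1l1, may thus partly follow from it too.

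None of 9 tested genes of the radial glia list was called against pallial radial glia. Over all genes tested there, 4.5% were higher and 2.13% lower, so 0 of 9 is near the share of all genes. Sox2 (77.2 to 154 [120] against 48.3 to 73.9 CPM [69.7], log2 0.86 ± 0.07) and Nes (150 to 260 [201] against 121 to 152 CPM [134], log2 0.58 ± 0.06) were higher in 9 of 9 animals but within the fold threshold. Against subpallial progenitors 4 of 9 were higher, among them Fabp7 (log2 2.06 ± 0.12). That population was chosen to have fewer than 2 genes of the pallial set, which includes the radial glial genes Hes5 and Slc1a3. Part of this difference may therefore follow from the choice. None of 39 S phase genes and none of 51 G2/M phase genes was called against pallial radial glia, with medians of -0.03 and -0.11.

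Markers of other cell types were checked in the summed counts. No gene of the microglia list was tested against pallial radial glia, and its summed level was 6.29 to 17.5 CPM in the members against 8.05 to 13.4 CPM there. The endothelial list summed to 9.11 to 21.4 CPM in the members and 9.07 to 20.04 CPM in pallial radial glia, the mural and fibroblast list to 16.4 to 41.9 and 16.9 to 30.5 CPM. The oligodendrocyte progenitor list summed to 24.9 to 52.6 CPM against 5.60 to 22.5 CPM, without overlap. Of its genes Olig2, also a gene of ventral progenitors, had 12.4 to 34.2 CPM [24.1] in the members, while Sox10 had 0 to 1.95 CPM [0]. Olig2 belongs to the subpallial set, and pallial radial glia were chosen to have fewer than 2 genes of that set. The separation of this total therefore partly follows from the choice. The erythroid list summed to 2.52 to 18.2 against 5.60 to 10.4 CPM. The choroid plexus list summed to 197 to 1270 CPM in the members (highest in KO 1) and 13.2 to 22.0 CPM in pallial radial glia, and it includes Otx2 itself. The oligodendrocyte progenitor and choroid plexus totals thus stood apart from pallial radial glia, and the ranges of the other totals given so far overlapped. The multiciliated and ependymal total was higher without overlap (58.6 to 248 against 35.7 to 48.0 CPM). Lower without overlap were the totals of retinal pigment epithelium (14.5 to 46.8 against 63.6 to 110 CPM) and excitatory intermediate progenitors (20.1 to 48.3 against 57.0 to 74.0 CPM). Most of the retinal pigment epithelium total in pallial radial glia was Dct, described above as also found in cortical progenitors. Of the 2 tested genes of that list, Dct was lower and Mitf was not called. Between genotypes, the oligodendrocyte progenitor total was 24.9 to 33.9 CPM (WT), 39.7 to 52.6 CPM (Het) and 35.1 to 48.8 CPM (KO), and the endothelial total 9.11 to 13.2 CPM (WT), 12.9 to 21.4 CPM (Het) and 16.6 to 18.7 CPM (KO). Het totals were also apart from WT in other lists, among them excitatory neurons and inhibitory neurons (both higher) and anoctamins (lower). The inhibitory neuron totals were barely apart, with at most 29.94 CPM in WT and at least 30.03 CPM in Het. The anoctamin total includes the marker Ano1, which was part of the selection, so it is a description only. KO overlapped WT in those lists, and the general neuron total overlapped between all genotypes. With so few animals per genotype, some of the many lists can be apart by chance. The part of these totals in the results was not tested. The general neuron list had 0 of 8 genes called against pallial radial glia and 4 of 8 lower than in subpallial progenitors. Over all genes tested, 4.5% were higher and 2.13% lower in the first comparison, so 0 of 8 is near that share. In the second comparison 2.24% of all genes were lower. Gad1 was higher than in pallial radial glia (log2 1.34), and without the Snhg11 and Isl1 cluster its log2 was -0.13.

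Parts of the WNT, FGF and BMP pathways differed as well. Of 23 tested WNT genes, 5 were higher than in pallial radial glia and 2 lower, and 10 of 20 were higher than in subpallial progenitors and 0 lower. The 5 included Rspo2 and Wnt3a, which were not higher outside the Ttr and Rspo2 cluster. Of the 2 lower genes, Fzd1 was called in 18 of 22 alternatives. Against subpallial progenitors, Sfrp1 was called in 16 of 23 and Wnt7b in 17 of 21. Lgr4, the receptor of R-spondins, had 150 to 243 CPM [182] in the members, 15.4 to 24.5 CPM [19.99] in pallial radial glia (log2 3.26 ± 0.08, edgeR adjusted p = 1.8e-21) and 32.3 to 63.7 CPM [50.4] in subpallial progenitors (log2 2.01 ± 0.11). Among the nuclear effectors, Tcf7l2 was higher than in both (547 to 884 CPM [631] against 222 to 262 [246] and 125 to 253 CPM [170], log2 1.43 ± 0.05 and 1.99 ± 0.08), while Lef1 was lower than in pallial radial glia (22.4 to 105 [37.8] against 127 to 201.9 CPM [148], log2 -1.85 ± 0.12). The members' ranges of Lgr4 and Tcf7l2 overlapped with neither population, nor that of Lef1 with pallial radial glia.

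In the FGF list, Fgf15 and the feedback inhibitor Spry2 (log2 1.44 ± 0.16) were higher than in pallial radial glia and the receptor Fgfr3 was lower (61.3 to 102 [79.5] against 211 to 300 CPM [261], log2 -1.74 ± 0.07), with 6 of 9 not called. In the BMP list 2 of 14 were higher, Bmp6 and the antagonist Chrdl1 (log2 1.17 ± 0.16), and 2 were lower, the target gene Id4 (-1.07 ± 0.06, called in 20 of 23 alternatives) and the inhibitor Smad6 (-1.61 ± 0.15). In the Notch list 1 of 16 was higher, Dll3 (2.06 ± 0.24), and 0 were lower. Against subpallial progenitors 4 of 8 FGF genes and 2 of 9 BMP genes were higher and 0 lower, while 4 of 14 Notch genes were higher and 3 lower, among the latter Dll3 (-2.88 ± 0.17). The shares called in these lists are read against the 4.5% higher and 2.13% lower of all genes over pallial radial glia, and 6.39% and 2.24% over subpallial progenitors.

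Of 11 tested partners and relatives of megalin, 1 was higher than in pallial radial glia and 1 was lower, Lrp4 (36.3 to 78.8 [63.2] against 212 to 236 CPM [229], log2 -1.91 ± 0.08). Of 5 tested anoctamins other than Ano1, only Ano3 was higher and 0 were lower (32.8 to 77.7 [55.6] against 22.2 to 28.1 CPM [25.5], log2 1.18 ± 0.12). Against subpallial progenitors 3 of 9 genes of the first list and 1 of 5 of the second were higher, the latter again Ano3 (log2 1.19 ± 0.16), and 0 were lower. In lists this short, 1 gene is a larger share than the share of all genes called.

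Myt1l itself had 90.9 to 213 CPM [155] in the members, 72.7 to 167 CPM [113] in pallial radial glia and 165 to 420 CPM [274] in subpallial progenitors. By genotype it had 157 ± 38.8 CPM in WT, 139 ± 24.4 CPM in Het and 154 ± 61.1 CPM in KO (SD, n = 3), and the groups overlapped. The log2 difference from WT was -0.06 ± 0.26 in KO and -0.14 ± 0.25 in Het, with an edgeR adjusted p of 1.00 for both. Reads from intact and mutant alleles were not told apart, so these values do not check the genotype.

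The genotype comparisons ask whether loss of MYT1L changed the number or the expression of these progenitors, of which 19.1% had a count of Myt1l. Of the kept nuclei of each animal, members made up 1.16, 1.59 and 1.26% (WT), 1.74, 1.31 and 1.41% (Het) or 0.954, 1.35 and 1.68% (KO). The groups overlapped. KO minus WT was -0.00582 percentage points (exact permutation test, two-sided, p = 1) and Het minus WT was 0.152 (exact p = 0.5), where 3 animals against 3 cannot go below 0.1. An exact permutation test over the 3 genotypes gave F = 0.339 and p = 0.707. Shares of the 8 clusters gave 16 exact tests, the lowest p being 0.3.

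With edgeR, 0 of 9768 genes were called between KO and WT (0%) and 0 between Het and WT (0%), at an adjusted p under 0.05 and a log2 fold change beyond 0.2. At an unadjusted p under 0.05 there were 271 (2.77%) and 339 (3.47%) genes, and DESeq2 gave 65 and 97 and called 0. The genes with the lowest unadjusted p were 1600010M07Rik, 9530052E02Rik and Fam210b for KO and Tmcc3, Nkd1 and Melk for Het. Fam210b had 26.4, 21.5 and 18.2 CPM in WT and 9.36, 9.76 and 7.24 CPM in KO (log2 -1.33 ± 0.36, edgeR adjusted p = 1.00). Melk, a kinase of dividing cells, had 76.1, 85.9 and 75.5 CPM in WT and 48.0, 50.3 and 45.0 CPM in Het (log2 -0.73 ± 0.18, edgeR adjusted p = 1.00). On simulated counts the same KO test recovered 96.5% of 200 genes changed 4-fold, with 3.5% false calls, and smaller changes were not simulated. The simulation gave every gene the same dispersion (spread between animals) and every animal the same make-up of members. The recovery in the real counts is therefore not known from it.

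The 39 S phase genes summed to 3418, 3718 and 3520 CPM in WT, 3065, 3458 and 3225 CPM in Het, and 2870, 3191 and 3756 CPM in KO. The groups overlapped, with Het minus WT at -303 CPM (exact p = 0.2) and KO minus WT at -279 CPM (exact p = 0.5). The 52 G2/M phase genes summed to 8925, 9376 and 9001 CPM in WT (9101 ± 241, SD), 8454, 7551 and 7683 CPM in Het (7896 ± 488) and 7058, 8278 and 8790 CPM in KO (8042 ± 890). All 6 mutants were below all 3 WT animals. The make-up of the members also differed between animals. KO 1, the lowest animal, had 18.5% of its members in the Snhg11 and Isl1 cluster. The list was at 3340 CPM over all members of that cluster, against 15766 CPM in the cluster led by Lockd and Birc5. In the cluster led by Pde7b and Egfem1 the list was lower still, at 2988 CPM. This cluster took 17.8% of the members of KO 1, against 18.8 to 29.0% in the other animals. The mitotic cluster led by Lockd and Birc5 took a mean of 23.6% of the members in WT, 20.2% in Het (exact permutation p = 0.5) and 20.3% in KO (exact permutation p = 0.3). The part of this make-up in the G2/M difference was not tested. Het minus WT was -1205 CPM and KO minus WT -1058 CPM, each with an exact two-sided permutation p of 0.1, the smallest that 3 animals against 3 can give, so this design could not pass 0.05.

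No single G2/M gene was called, with 2 of 51 tested genes positive in Het and 6 of 51 in KO, and these genes are not independent of each other. The KO difference was -566 CPM without KO 1, the animal with the fewest members (146), and run 1 alone gave an exact p of 0.3 for either mutant. The same list in pallial radial glia covered 9435 to 9459 CPM (WT), 8674 to 9467 CPM (Het) and 8542 to 9220 CPM (KO), so KO was below WT there too while Het overlapped WT. In subpallial progenitors it covered 10590 to 12099 CPM (WT), 9785 to 10692 CPM (Het) and 9337 to 11358 CPM (KO), and the groups overlapped. In the cluster led by Lockd and Birc5, where the list was highest, WT had 15259 to 16976 CPM, Het 13614 to 16518 CPM and KO 14830 to 15900 CPM, and the groups overlapped. In the Fgf17 and Glis3 cluster all KO animals (8732 to 10058 CPM) were above all WT animals (7455 to 8514 CPM), and in the Sfta3-ps and Nkx2-1 cluster all KO animals (5707 to 8647 CPM) were below them (8716 to 9886 CPM), while KO overlapped WT in the other 6. Het was apart from WT only in the Ttr and Rspo2 cluster of 55 nuclei, with 1644 to 1917 CPM against 4613 to 13800 CPM. That cluster had 4, 7 and 5 nuclei in the WT animals and 6, 9 and 3 in the Het animals, so these values rest on few nuclei. The KO separations went in opposite directions. With so few animals and many cluster comparisons, some groups can be apart by chance. These differences within clusters were not tested.

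**Figure D5:**
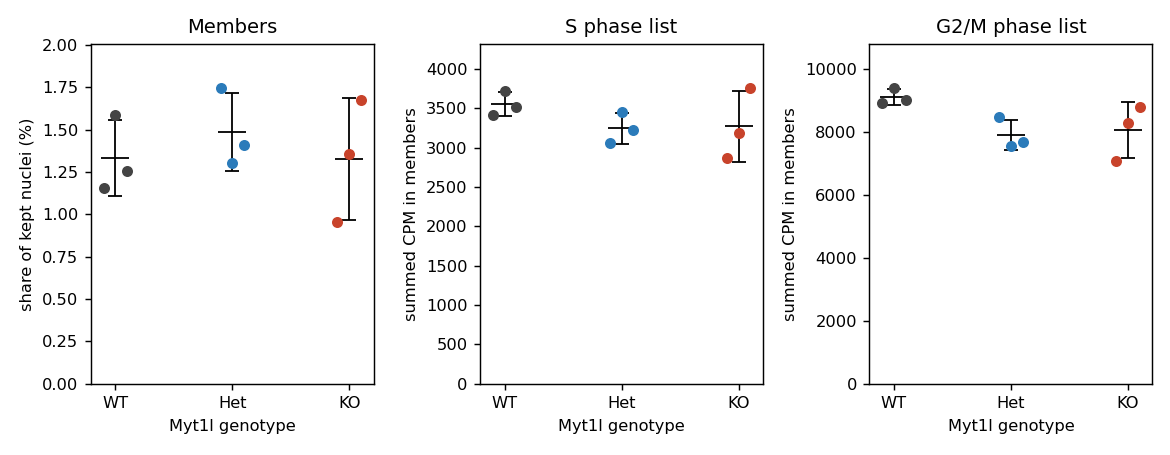
Share of kept nuclei that were members (%), and summed CPM of the S phase and G2/M phase lists in the members (y axes from 0), per animal (points) by Myt1l genotype, with the mean and 1 SD (n = 3 animals). The G2/M level of the 6 mutant animals (7058 to 8790 CPM) lay below that of the 3 WT animals (8925 to 9376 CPM), and the share and the S phase level overlapped.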

How the data were processed

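Single-nucleus RNA sequencing libraries of E14 mouse forebrain were analysed from the matrices the authors deposited, which hold expected counts (estimated, partly fractional UMI counts) per gene and barcode. Per the labels and the study's methods, the authors mapped reads with the ScaleRna pipeline to mm10, and their processing notes name Seurat 4.3.0, DESeq2 1.38.3 and Scanpy 1.12.0. The annotation release and any use of strand in counting are not stated in these sources. Gene positions were taken from a GENCODE annotation of mm10.

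Nuclei were kept and members selected by the limits stated in the report. Both runs of an animal were summed, and sums were rounded to whole counts. The members and the gene lists were chosen with earlier results of these data known. Summed counts were tested with edgeR 4.0.16 (R 4.3.3, quasi-likelihood, TMM, low counts filtered, Benjamini-Hochberg), with the animal as a block between populations and genotype alone between genotypes. Named genes were the 10 called genes with the largest change in each direction, with a mean of at least 20 CPM in the higher population, the same direction in 9 of 9 animals and a symbol other than a Gm or Rik model, outside the selection rules and not sex-linked, for genotype the 3 with the lowest p, and the markers, Myt1l, Myt1, St18 and examples of the lists. Single values were compared by exact two-sided permutation tests over animals. DESeq2 1.42.0 was an alternative. Members were clustered with scanpy 1.11.5 (2000 variable genes, 30 components, 15 neighbours, resolution 0.5). The edgeR fits were tested on simulated data. Intervals and spreads cover these 9 animals, and the depth was 428020 to 1244210 UMIs of members per animal, lowest in KO 1. Between runs, 1 barcode was shared by members of different animals.

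Alternatives were other marker thresholds, detection, UMI limits, doublet removal, single runs, normalisation, DESeq2, no filter, a replicate block and leaving out each animal. Counting genes from a value of 1 and leaving out the Snhg11 and Isl1 cluster were chosen after seeing the data. Replicate numbers were not taken as pairs. Results of some genes are not reported here.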

Additional observations from a re-analysis of the deposited data

How the results depend on the processing

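The directions of the G2/M and S phase differences held in every alternative run, though with the replicate block they could not change. Between genotypes 0 genes were called except with no filter on low counts, where 15 genes were called for KO and 30 for Het. The KO minus WT difference in the share of members, -0.00582 percentage points, changed sign with at least 3 markers (0.0443), with Otx2 and Otx2os1 counted as 1 marker (0.0203), with any value above 0 detected (0.0105), without upper limits (0.00945), in run 1 alone (0.0315) and with genes counted from 1, an alternative chosen after seeing the data (0.00802). Leaving out 1 animal gave -0.180 to 0.182 for KO (0.120 without WT 2, 0.182 without KO 1) and 0.0226 to 0.278 for Het. It gave -1432 to -566 CPM (KO) and -1484 to -1032 CPM (Het) for the G2/M level, and -521 to -78.4 CPM (KO) and -407 to -210 CPM (Het) for the S phase level.

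Genes higher than in pallial radial glia were 295 in run 1 alone and 838 with no filter, and lower genes 496 with no filter. Against subpallial progenitors 278 were higher in run 1 alone and 1222 with no filter, and 93 (run 1), 346 (no filter) and 309 (without the Snhg11 and Isl1 cluster, chosen after seeing the data) were lower. The smaller depth of 1 run and the larger number of genes tested without a filter are parts of these alternatives by construction, and other causes were not tested. Leaving out 1 animal gave 535 to 561, 254 to 271, 525 to 593 and 185 to 224 genes for these counts in the same order, and 0 for both genotype comparisons.

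With a replicate block, differences in mean share or list level cannot change, because each number has an animal of every genotype. The share differences had an exact p = 1 for KO and 0.75 for Het, and 0 genes were called between genotypes. The G2/M differences of -1058 and -1205 CPM had an exact p of 0.25 each. That is the smallest p an exact test within replicate numbers can give with so few animals. The rise from the unblocked p therefore does not show a weaker difference. The comparisons between populations were blocked on the animal and not on the replicate number, and with genotype in place of that animal block they gave 542 and 256 genes against pallial radial glia and 566 and 196 against subpallial progenitors. Correlations of the 9 pairs of animals with the same number were 0.0582 to 0.395 over 3895 genes (median 0.231) and not all above 0.1. Those of 18 other pairs were -0.379 to 0.310 (median -0.167), so animals with the same number were mostly more alike. The paper drew its E14 animals from several litters and does not say what the replicate number stands for. The main genotype fits did not use this number. Depth limits low genes most, with 146 members in KO 1.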
